A study of Mus musculus with 6 samples.

Results

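ABC transporter genes encode proteins with the ATP-binding cassette, a paired domain that binds and splits ATP and in most of the family drives a substrate across a membrane. They were taken as every gene of the expression table whose mouse symbol begins with Abc, a subfamily letter from a to g and a number, with pseudogenes left out. This gave 43 protein-coding genes of 22246 genes in all: 15 of subfamily A, 10 of B, 7 of C, 4 of D, 1 of E, 3 of F and 3 of G. A further 7 mouse genes with such symbols (Abca14, Abcc2, Abcc6, Abcc8, Abcg3, Abcg5 and Abcg8) were not analysed here.

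Both groups consisted of HL-1 cells, an established line from mouse atrial cardiomyocytes, with the strain given as C57BL/6. One group of 3 libraries carried a control shRNA and the other 3 libraries are labelled as carrying an shRNA against Smyd4, a member of a family of lysine methyltransferases; no other treatment or time is given in the labels. An shRNA is a hairpin RNA that directs the breakdown of a matching mRNA. Whether libraries within a group were grown as separate cultures is not stated in the labels, so p-values measure only how far these libraries spread, which may be technical.

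Some ABC transporters carry a pair of membrane domains and a pair of ATP-binding domains in one chain, while others carry one of each and work as dimers. Subfamily A is known mainly for lipids and C for organic anions, B holds both builds, D and G work as dimers, and E and F lack membrane domains and act on ribosomes. In heart muscle the family is known for drug and cyclic nucleotide export, cholesterol efflux, mitochondrial transport and the regulatory subunit of a potassium channel.

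The 6 libraries held between 20755856 and 26387606 reads in genes, as recovered from the deposited values. Between 0.166% and 0.170% of those reads fell on the ABC genes, with overlapping groups. Smyd4 mRNA stood at 12.5, 12.8 and 13.5 FPKM (fragments per kilobase of gene, scaled for depth) in the control libraries and at 12.6, 12.3 and 11.9 FPKM in the labelled ones. The labelled mean was 5.1% lower, but the groups overlapped (limma, adjusted p = 0.173, and exact two-sided permutation p = 0.2, where 0.1 is the smallest possible). A fall of the target's mRNA was thus not shown, and the second group is called the libraries labelled Smyd4 shRNA. Of 10 atrial cardiomyocyte markers in the table, 7 stayed under 1 FPKM in all 6 libraries, among them Myh6, Myh7, Actc1 and Myl7, and Nppa was not analysed here. Of the other 3, Tnnt2 rose (7.11 to 11.7 FPKM), Nppb fell (2.15 to 0.484 FPKM, above 1 FPKM in the controls alone) and Gja1 did not pass (146 and 145 FPKM). All 5 endothelial markers and the macrophage genes Ptprc, Adgre1 and Csf1r were under 1 FPKM throughout; the macrophage list's summed level, mostly Cd14, lay at 28.9 to 30.4 FPKM in controls and 19.5 to 21.3 FPKM in the labelled libraries. Summed levels of 3 other marker lists were also lower in the labelled libraries: 29.2 to 31.1 against 147 to 154 FPKM for 4 neuron genes, 6.30 to 6.94 against 22.8 to 23.9 FPKM for 3 skeletal muscle genes, and 197 to 205 against 301 to 315 FPKM for 4 smooth muscle genes. These sums rest on few genes: 3 neuron, 2 skeletal muscle and 2 smooth muscle genes were tested. All were called lower, as were 23.3% of all genes tested. Acta2 (292 to 196 FPKM) made up most of the smooth muscle sum and Myod1 (18.8 to 5.31 FPKM) most of the skeletal muscle sum. Syp, Myog, Myh11 and Cnn1 stayed under 1 FPKM in all 6 libraries. The 7 fibroblast markers were split, with 2 higher and 2 lower of 5 tested. Col1a1 (37.6 to 69.3 FPKM) and Col1a2 (60.5 to 84.9 FPKM) rose and carried a higher sum (270 to 282 against 239 to 246 FPKM), while Dcn fell 15.2-fold (26.3 to 1.72 FPKM) and Pdgfra 1.48-fold (4.35 to 2.94 FPKM). The part of these differences in the results below was not tested, and in bulk RNA fewer cells of a type and less RNA per cell cannot be told apart.

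The ABC genes did not move as a block. Of the 4 largest falls, 3 were in drug and conjugate exporters and the fourth in Abca1. Exporters also had the largest rises, Abcc5 and Abcc4 (log2 change 0.31 and 0.30). The mitochondrial Abcb10 and the peroxisomal Abcd3 came next (0.26 and 0.26). Of the 43 genes, 25 averaged 1 FPKM or more across all 6 libraries and were tested, and 18 were below that. With limma on log2(FPKM + 0.5) and Benjamini-Hochberg adjustment over all tested genes, 15 of the 25 passed an adjusted p of 0.05, against 48.3% of all 11325 genes tested. Rises numbered 8 (25.1% of all genes tested were called higher) and falls 7 (23.3% were called lower), and 10 did not pass. Abcc3 passed the level filter through its control libraries alone, so these counts describe the tested genes and not the whole family. The median log2 change of the tested ABC genes was 0.06, beside 0.02 over all genes tested, and the median size of the change was 0.18 beside 0.13. The summed level of all 43 genes was 340.6 ± 0.198 FPKM (SD, n = 3) among controls and 345.7 ± 5.44 FPKM (SD, n = 3) among the labelled ones. The groups did not overlap in 19 of the 25 tested genes, as in 57.8% of all genes tested. Only 4 falls and 1 rise reached 0.3 on the log2 scale; 10.8% and 7.31% of all genes tested were called with a change of that size.

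**Figure D1:**
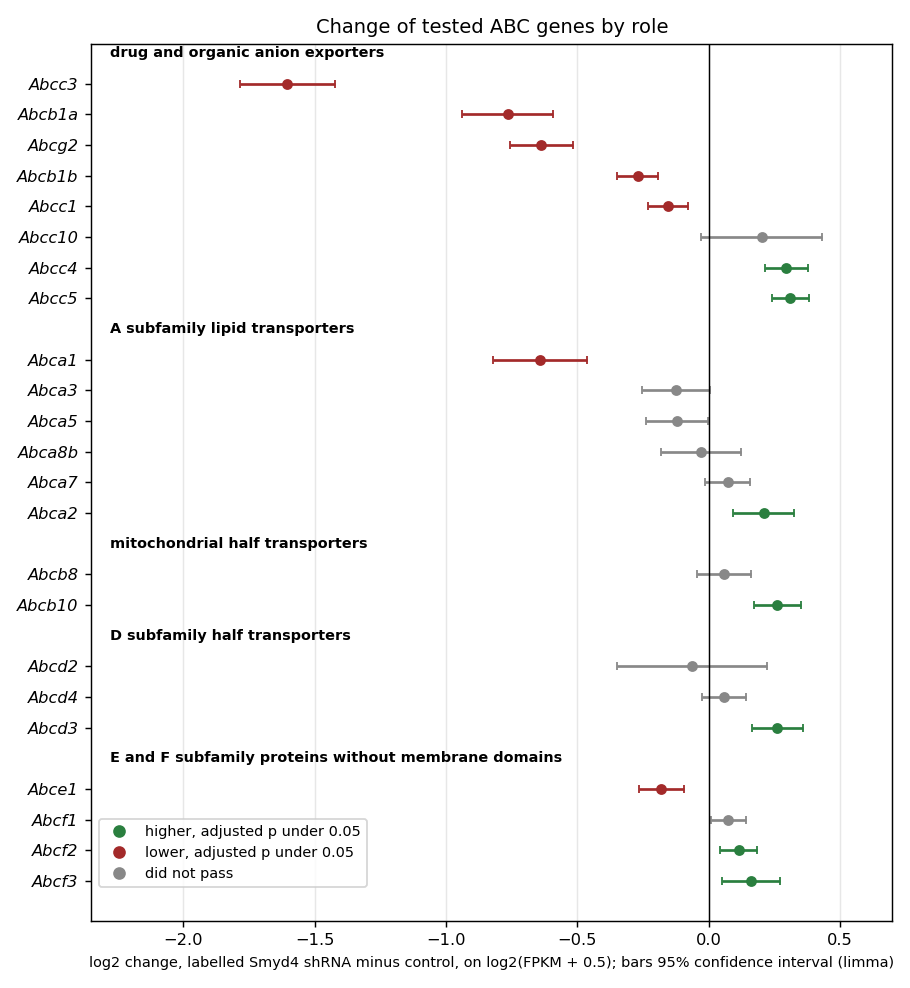
Log2 change (labelled Smyd4 shRNA minus control, on log2(FPKM + 0.5)) with its 95% confidence interval from limma for 23 of the 25 tested ABC genes, grouped by role; red and green mark genes called lower and higher at an adjusted p of 0.05, grey those that did not pass. Abcc3 lies farthest from 0 at -1.60, and the rises plotted lie between 0.11 and 0.31.

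Levels per gene length spanned a wide range. The most abundant were the soluble proteins Abcf2 (71.0 ± 2.22 FPKM in the control libraries), Abce1 (63.1 ± 0.803 FPKM) and Abcf1 (45.0 ± 0.730 FPKM), well above Abcd4 at 16.6 ± 0.475 FPKM, the next in order. Neighbours further down lay close together: Abcc5 (12.3 ± 0.221 FPKM) and Abca7 (12.2 ± 0.218 FPKM) did not differ beyond their spread, nor did Abcg2 (5.35 ± 0.248 FPKM) and Abcb1a (5.44 ± 0.162 FPKM). Among exporters at the cell surface, Abcc5, Abcb1b, Abcc1 and Abcc4 all lay between 10.4 and 12.3 FPKM in the controls.

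**Figure D2:**
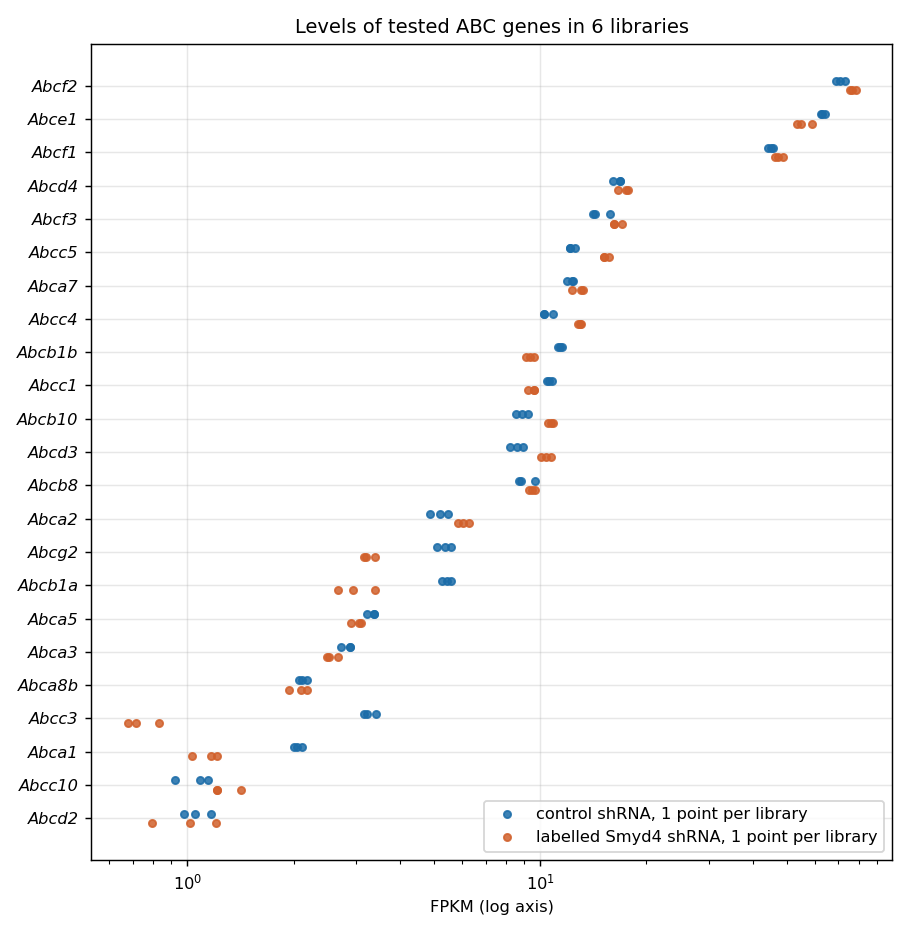
FPKM (log axis) of 23 of the 25 tested ABC genes in each of the 6 libraries, ordered by mean, with 1 point per library (blue, control; orange, labelled Smyd4 shRNA). The 2 groups separate most clearly for Abcc3, Abca1, Abcb1a and Abcg2, where all orange points lie to the left.

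Promoter sequence is shown for 3 genes that passed in opposite directions, the falling Abca1 and Abcb1b and the rising Abcc5, whose RefSeq start sites (GRCm38.p6) equal the gene starts given in the authors' table. The 250 bases before each start site are printed 5′ to 3′ on the gene's strand. Capitals mark matches on either strand to the CCAAT box, the GC box GGGCGG, the TATA box TATAAA and the E-box CACGTG. They lie at chr4:53159896-53160145 (minus strand), chr5:8797897-8798146 (plus strand) and chr16:20426395-20426644 (minus strand).
Abca1: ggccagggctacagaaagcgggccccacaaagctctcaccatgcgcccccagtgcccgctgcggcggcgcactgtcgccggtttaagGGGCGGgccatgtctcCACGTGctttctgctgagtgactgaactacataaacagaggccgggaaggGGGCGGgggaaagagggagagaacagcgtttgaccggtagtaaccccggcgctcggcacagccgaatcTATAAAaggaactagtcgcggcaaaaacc
Abcb1b: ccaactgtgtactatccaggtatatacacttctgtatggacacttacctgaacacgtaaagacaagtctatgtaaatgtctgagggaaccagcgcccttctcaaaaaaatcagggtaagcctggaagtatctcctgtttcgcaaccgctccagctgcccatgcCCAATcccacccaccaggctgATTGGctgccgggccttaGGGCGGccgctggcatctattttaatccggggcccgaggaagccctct
Abcc5: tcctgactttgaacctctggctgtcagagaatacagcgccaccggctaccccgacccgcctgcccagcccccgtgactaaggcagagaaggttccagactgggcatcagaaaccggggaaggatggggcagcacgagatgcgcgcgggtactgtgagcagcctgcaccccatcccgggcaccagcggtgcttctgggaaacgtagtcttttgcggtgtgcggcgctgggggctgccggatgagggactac
In Abca1 the TATA box match begins at position -29, the E-box match at -147 and the GC box matches at -163 and -97, counted in bases upstream of the start site. Abcb1b holds a CCAAT match on the plus strand at -87, one on the minus strand at -66 and a GC box at -48, and no TATA match. Abcc5 holds none of the 4 motifs in these bases. Of other genes called higher, Abcc4, Abcf2 and Abcf3 hold GC box matches within 250 bases upstream, while Abcb10 and Abcd3 hold none of the 4 motifs. Whether motif content goes with direction was not tested. RefSeq windows were found for 33 of the 43 genes, 39 windows in all, each with 50 further bases after the start site, and not, among others, for Abca6, Abcb8, Abcc1, Abcc3, Abcd2, Abcd4, Abcg1 and Abcg4. The GC box occurred in 20 of the 39 windows (51.3%) and in 35.7% of all 32851 windows, the CCAAT box in 12 (30.8%) and 37.4%, the E-box in 6 (15.4%) and 7.15%, and the TATA box in 5 (12.8%) and 13.6%. Such a match is a run of letters, not a measured binding site.

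Of the 8 tested genes for exporters of drugs and organic anions, 5 fell, 2 rose and 1 did not pass. In all 8 the groups did not overlap, and the median log2 change was -0.21; over all genes tested, 23.3% were called lower, 25.1% higher and 57.8% did not overlap. These exporter counts include Abcc3, which passed the level filter through its control libraries alone, so they describe the tested genes only. Abcc3 encodes an exporter of glucuronide conjugates and bile acids that sits on the basolateral membrane of liver and gut cells (chromosome 11, 94343295 to 94392997, minus strand, GRCm38). It held 3.23, 3.16 and 3.43 FPKM in the control libraries and 0.678, 0.715 and 0.831 FPKM in the labelled ones, on 427 to 495 reads in each control and 98 to 103 in each labelled library. Every labelled library was thus far below every control. The mean was 4.41-fold lower (log2 change -1.60, standard error 0.08; limma, adjusted p = 1.84e-06).

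Abcb1a and Abcb1b encode the P-glycoproteins of the mouse, which pump many unrelated hydrophobic drugs out of cells. Abcb1a (chromosome 5, 8660077 to 8748575, plus strand) held 5.60, 5.28 and 5.45 FPKM in the control libraries and 2.67, 3.39 and 2.95 FPKM in the labelled libraries. All labelled values lay below all control values, with labelled replicate 2 nearest to them. The mean was 1.81-fold lower (log2 change -0.77, standard error 0.08; limma, adjusted p = 9.57e-05). Abcb1b (chromosome 5, 8798147 to 8866315, plus strand) was more abundant in the controls; it went from 11.4 ± 0.141 to 9.36 ± 0.252 FPKM (log2 change -0.27, standard error 0.03; limma, adjusted p = 0.000333).

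The ratio of Abcb1b to Abcb1a was 2.09 ± 0.0536 (SD, n = 3) in the control libraries and 3.15 ± 0.418 (SD, n = 3) in the labelled ones, without overlap. The exact two-sided permutation test gave p = 0.1, the smallest this design allows, and 0.1 after adjustment over the 2 ratios tested. The paralogs are close in sequence, so reads may have been shared between them, which makes each single level uncertain. Their neighbour Abcb4, a phosphatidylcholine transporter of the bile canaliculus, lies downstream in the same 299 kb run (to 8959231) and was low in both groups, at 0.181 to 0.252 and 0.181 to 0.261 FPKM.

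Abcg2, the breast cancer resistance protein, works as a dimer that exports drugs, urate and porphyrins (chromosome 6, 58584523 to 58695676, plus strand). Its level was 5.59, 5.10 and 5.37 FPKM in the controls and 3.41, 3.21 and 3.17 FPKM in the labelled libraries, with no overlap. This was a 1.64-fold fall of the mean FPKM. On log2(FPKM + 0.5) the change was -0.64 (limma, standard error 0.05, adjusted p = 3.25e-05), and edgeR gave -0.72. Abcc1, which exports glutathione conjugates and leukotriene C4, fell by a small amount, from 10.6 ± 0.184 to 9.49 ± 0.217 FPKM (limma, adjusted p = 0.0061).

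The 2 exporters that rose are known for transport of cyclic nucleotides. Abcc5 (chromosome 16, 20331303 to 20426394, minus strand) held 12.2, 12.5 and 12.1 FPKM in the controls and 15.2, 15.7 and 15.2 FPKM in the labelled libraries, all of them above the controls. Its promoter is printed above. It had the largest rise of the 25 tested genes, 1.25-fold (log2 change 0.31, standard error 0.03; limma, adjusted p = 9.4e-05). Abcc4, which also exports prostanoids and urate, went from 10.4 ± 0.382 to 12.9 ± 0.134 FPKM, 1.24-fold (limma, adjusted p = 0.000272). Abcc10, another exporter of the C subfamily, stood at 1.05 ± 0.117 and 1.28 ± 0.122 FPKM and did not pass (limma, adjusted p = 0.132), although its groups did not overlap. It passed with edgeR on recovered reads (adjusted p = 0.0218) and not with DESeq2 (adjusted p = 0.119), and over 15 alternatives its adjusted p lay between 0.0218 and 0.329.

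**Figure D3:**
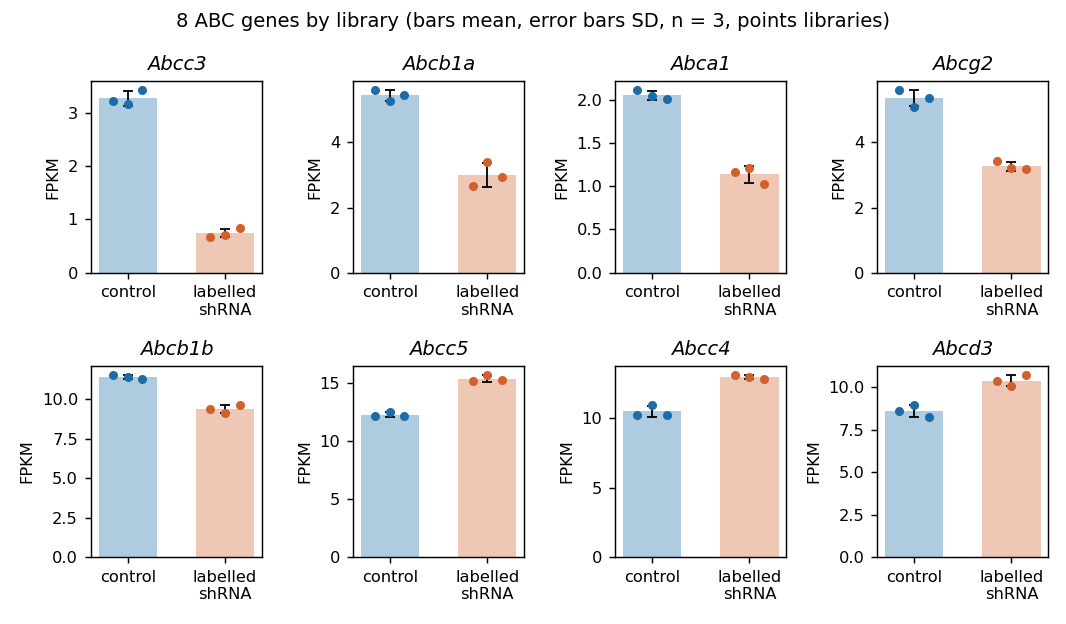
FPKM of 8 ABC genes in the control libraries (blue) and the libraries labelled Smyd4 shRNA (orange), each on its own linear axis from 0; bars are means, error bars SD (n = 3) and points single libraries. The 8 genes were picked among those called here, so the lack of overlap in every panel is no separate result. Of all genes tested, 57.8% did not overlap. The fall of Abcc3 from 3.27 to 0.741 FPKM is the largest fold change shown.

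Of the 6 tested A subfamily lipid transporters, 1 fell, 1 rose and 4 were not called, with a median log2 change of -0.07. Over all genes tested, 23.3% were called lower and 25.1% higher. Abca1 passes cholesterol and phospholipid to apolipoprotein A-I, the step that starts the formation of HDL, and is a classic target of the LXR nuclear receptors (chromosome 4, 53030787 to 53159895, minus strand). It was at 2.11, 2.04 and 2.01 FPKM in the control libraries and at 1.17, 1.21 and 1.03 FPKM in the labelled ones, well apart. The change was a 1.81-fold fall (log2 change -0.64, standard error 0.08; limma, adjusted p = 0.000298). Abca2, a lysosomal and endosomal transporter studied in myelin-forming cells, rose from 5.18 ± 0.293 to 6.07 ± 0.208 FPKM (limma, adjusted p = 0.01).

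Abca7, a close relative of Abca1 that is known for phospholipid export and phagocytosis, stood at 12.2 ± 0.218 and 12.9 ± 0.504 FPKM and did not pass (limma, adjusted p = 0.143). The surfactant lipid transporter Abca3 (2.83 and 2.56 FPKM; limma, adjusted p = 0.103) and the lysosomal Abca5 (3.33 and 3.03 FPKM; limma, adjusted p = 0.0902) were lower in all labelled libraries without passing. Both passed with edgeR on recovered reads (adjusted p = 0.0286 and 0.0138) and not with DESeq2 (adjusted p = 0.178 and 0.108). Abca8b overlapped between groups at 2.12 and 2.08 FPKM.

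Abca5, Abca6, Abca8a, Abca8b and Abca9 lie side by side on the minus strand of chromosome 11, within 406 kb (109932190 to 110337716). Abca8a held 0.613, 0.431 and 0.384 FPKM in the controls and 1.02, 0.946 and 1.01 FPKM in the labelled libraries. Its groups did not overlap and the mean was 2.08-fold higher, on 61 to 92 reads in each control and 131 to 167 in each labelled library. Its mean over all libraries was below 1 FPKM, so it was not in the main test, but it was called higher by edgeR on recovered reads (log2 change 1.05, adjusted p = 3.89e-07). The authors' deposited table also lists Abca8a, with a log2 fold change of 0.89.

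Abca9 overlapped between groups (0.421 to 0.524 against 0.506 to 0.672 FPKM) and was not called by edgeR (adjusted p = 0.246). Abca6 rested on 1 to 9 reads per library. The ratio of Abca8b to its close paralog Abca8a was 4.66 ± 1.14 (SD, n = 3) in the controls and 2.10 ± 0.202 (SD, n = 3) in the labelled libraries, without overlap; the exact two-sided permutation p was 0.1, the smallest possible, and 0.1 after adjustment. Reads shared between these paralogs would make each level uncertain.

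**Figure D4:**
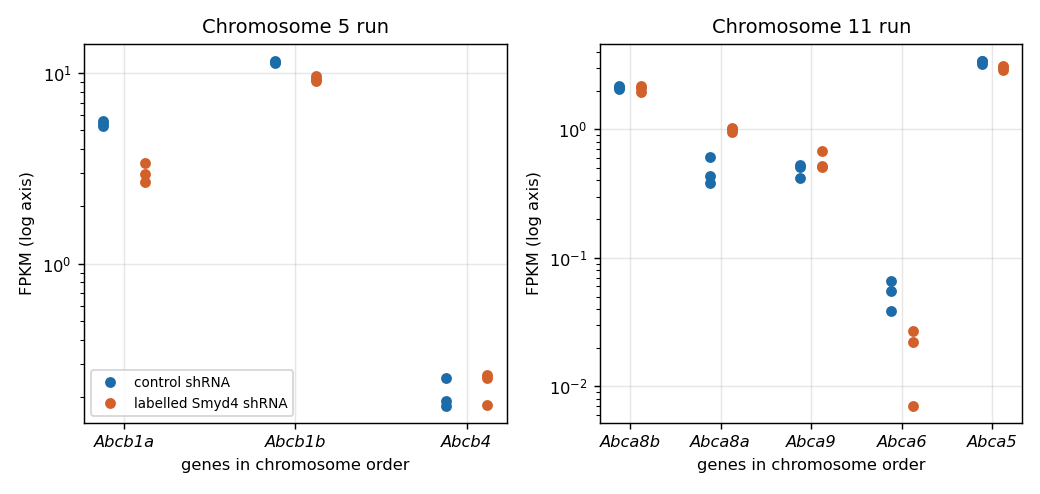
FPKM (log axis) of neighbouring ABC genes on chromosomes 5 (left) and 11 (right) in each library (blue, control; orange, labelled Smyd4 shRNA), drawn in chromosome order and not to genomic scale. Abcb1a and Abcb1b are both lower in the labelled libraries, while in the right panel Abca8a is higher and the adjacent Abca8b and Abca9 overlap.

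Among transporters of mitochondria, Abcb10 rose and Abcb8 did not pass. Abcb10 sits in the inner membrane and is needed for haem synthesis in red cell precursors. Abcb10 (chromosome 8, 123952459 to 123983122, minus strand) held 9.23, 8.86 and 8.52 FPKM in the controls and 10.9, 10.7 and 10.5 FPKM in the labelled libraries. All labelled values were above the controls, a 1.21-fold rise (log2 change 0.26, standard error 0.04; limma, adjusted p = 0.000855). Abcb8, part of a potassium channel complex of that membrane, overlapped between groups (9.06 ± 0.512 and 9.46 ± 0.184 FPKM; limma, adjusted p = 0.308).

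In the D subfamily Abcd3 rose, and Abcd2 and Abcd4 did not pass. Abcd3, the abundant peroxisomal membrane protein that imports branched-chain fatty acids and bile acid precursors, rose from 8.58, 8.95 and 8.22 to 10.4, 10.1 and 10.7 FPKM (log2 change 0.26, standard error 0.04; limma, adjusted p = 0.00141). Its relative Abcd2 overlapped between groups (1.07 ± 0.0973 and 1.01 ± 0.205 FPKM). So did Abcd4, which serves cobalamin export from lysosomes (16.6 ± 0.475 and 17.3 ± 0.588 FPKM).

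The 4 proteins of the E and F subfamilies moved by small amounts, and in both directions. Abce1, which splits ribosomes after termination, held 64.0, 62.5 and 62.8 FPKM in the controls and 53.4, 54.9 and 58.8 FPKM in the labelled libraries. All labelled libraries were lower, with a mean that fell by 11.8% (log2 change -0.18, standard error 0.04; limma, adjusted p = 0.00464). Abcf2 went from 68.9, 70.8 and 73.3 FPKM to 76.7, 75.4 and 78.6 FPKM (log2 change 0.11, standard error 0.03; limma, adjusted p = 0.016). Abcf3, a partner of the Gcn2 kinase system in yeast, went from 14.7 ± 0.904 to 16.5 ± 0.535 FPKM (limma, adjusted p = 0.0235).

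The calls of Abcf2 and Abcf3 depended on single libraries. Abcf2 was not called without control replicate 1 (limma, adjusted p = 0.059) or control replicate 2 (0.0508). Abcf3 was not called without control replicate 1 (limma, adjusted p = 0.0795), control replicate 3 (0.0732) or replicate 1 of the labelled libraries (0.0771), nor without the level filter (0.0563). Abcf1, which binds the initiation factor eIF2, held 45.8, 45.0 and 44.3 FPKM in the controls and 47.3, 46.3 and 48.8 FPKM in the labelled libraries. Its groups did not overlap, yet it did not pass (log2 change 0.08, standard error 0.03; limma, adjusted p = 0.0616); it passed without replicate 2 of the labelled libraries (0.0475).

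The 18 genes below 1 FPKM included transporters known from specialised tissues. Abcc9, the regulatory subunit of the ATP-sensitive potassium channel in heart and smooth muscle, had 0 to 2 reads per library, and the channel pore gene Kcnj8 was at 0 in the labelled libraries and at most 0.0166 FPKM in the controls. The bile salt pump Abcb11 had 3 to 7 reads, the retinal lipid transporter Abca4 1 to 14 and the porphyrin transporter Abcb6 5 to 10 reads per library. The sterol exporters Abcg1 (0.154 to 0.165 FPKM in the controls and 0.107 to 0.156 FPKM in the labelled libraries) and Abcg4 (0.0567 to 0.182 and 0.0987 to 0.132 FPKM) overlapped between groups. Abca12, Abca13, Abca15, Abca16, Abca17, Abcb5 and Abcc12 had at most 7 reads in any library. In Abca4, Abca6, Abca13, Abca16 and Abcb11 the groups did not overlap, on at most 14 reads per library. The share of other genes this low without overlap was not computed, so this was not read as a change.

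Abcb9, a lysosomal peptide transporter, had 11 to 15 reads in each control (0.0775 to 0.112 FPKM) and 2 to 6 in each labelled library (0.0137 to 0.0424 FPKM), and edgeR on recovered reads called it lower (log2 change -1.88, adjusted p = 0.00234). Its exons overlap those of Gm34086 on the opposite strand, and the sources used here do not state the strand setting of the counting. With edgeR, 31 ABC genes were tested and 20 called, 10 in each direction, against 49.5% of all 13775 genes tested (23.3% higher and 26.3% lower). The authors' deposited table lists 17 of the 43 genes; 15 of them are the genes called here, and the others are Abca8a and Abcb9. For the falls named above the authors' deposited table gives log2 fold changes of -1.98 for Abcc3, -0.82 for Abcb1a, -0.81 for Abca1 and -0.70 for Abcg2. For Abcb9 it gives -0.53, a smaller fall than the -1.88 from edgeR.

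ABC genes with other symbols were left out by the rule. Tap1 and Tap2, which form the pump that brings peptides to MHC class I molecules in the endoplasmic reticulum, stood at 0.959 ± 0.131 and 1.24 ± 0.128 FPKM and at 7.96 ± 0.0934 and 7.27 ± 0.536 FPKM, and neither passed (limma, adjusted p = 0.0874 and 0.0831). Both passed with edgeR on recovered reads, Tap1 higher (adjusted p = 0.015) and Tap2 lower (adjusted p = 0.0477). Cftr, the chloride channel of the family, was near 0.

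Lists of genes that work with ABC transporters were read from the same test, to be set beside the 48.3% of all genes called. The glutathione and Nrf2 list holds genes of glutathione supply and conjugation, which feed C subfamily pumps, beside the regulators Nrf2 and Keap1 and other redox genes. It had 12 members higher and 1 lower of 15 tested (median log2 change 0.36). The quinone reductase Nqo1 went from 46.3 ± 1.90 to 92.6 ± 1.38 FPKM and the cystine transporter Slc7a11 from 10.7 ± 0.157 to 16.1 ± 0.955 FPKM, while the membrane glutathione transferase Mgst1 fell from 18.1 ± 0.378 to 10.8 ± 0.375 FPKM. Nfe2l2, which encodes Nrf2, stood at 36.9 ± 0.660 and 35.9 ± 0.903 FPKM and did not pass (limma, adjusted p = 0.3). Keap1 was among the 12 higher, from 14.0 ± 0.542 to 15.3 ± 0.685 FPKM with overlapping groups (limma, adjusted p = 0.0388). The sterol efflux and LXR list was split, with 5 higher and 5 lower of 14 tested (median -0.02). In it Nr1h3, which encodes LXR alpha, rose from 0.701 ± 0.0752 to 1.35 ± 0.177 FPKM and the lipid carrier Apoe from 1.35 ± 0.246 to 2.01 ± 0.108 FPKM. The more abundant Nr1h2, which encodes LXR beta, stood at 19.6 ± 0.570 and 19.2 ± 0.463 FPKM and did not pass (limma, adjusted p = 0.481). Nr1h3 averaged above 1 FPKM through the labelled libraries alone, so its call and its place in that count carry the same limit as Abcc3. Npc1, which moves cholesterol out of lysosomes, fell from 5.78 ± 0.220 to 3.55 ± 0.228 FPKM.

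The list of peroxisomal entry and breakdown of very long chain fatty acids had 0 higher and 3 lower of 12 tested (median -0.04), while Abcd3 rose. The falls were the import receptor Pex5 (19.8 ± 0.468 to 15.9 ± 0.320 FPKM), the acyltransferase Crot (8.71 ± 0.228 to 7.45 ± 0.304 FPKM) and the thiolase Scp2 (30.3 ± 0.546 to 26.9 ± 0.471 FPKM). Of 18 genes of haem synthesis and iron-sulfur clusters, 8 were higher and 2 lower (median 0.11). Cpox and Fech, which act late in haem synthesis, went opposite ways: Cpox rose from 22.1 ± 0.903 to 30.4 ± 1.04 FPKM and Fech fell from 19.2 ± 0.388 to 14.6 ± 0.718 FPKM. The iron-sulfur assembly gene Isca2 rose from 29.5 ± 1.29 to 36.2 ± 2.32 FPKM.

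Partners of the E and F subfamilies in ribosome recycling and Gcn2 sensing had 5 higher and 3 lower of 10 (median 0.07). The ribosome rescue factor Pelo, which works with Abce1, fell from 9.34 ± 0.134 to 7.45 ± 0.583 FPKM and the release factor Etf1 from 73.7 ± 1.30 to 62.9 ± 1.35 FPKM. The initiation factor subunit Eif2s2 rose from 43.3 ± 0.123 to 52.7 ± 1.38 FPKM. Peptide loading genes had 3 higher and 4 lower of 9 tested (median -0.06), and among them B2m, the light chain of MHC class I, fell from 292 ± 13.4 to 204 ± 3.14 FPKM. The class I heavy chain H2-D1 (20.2 ± 0.434 to 17.6 ± 0.292 FPKM) and the loading factor Tapbp (35.2 ± 0.714 to 30.7 ± 0.975 FPKM) fell as well. The other heavy chain of the list, H2-K1, was among the 3 higher, from 13.6 ± 0.301 to 14.7 ± 0.375 FPKM (limma, adjusted p = 0.0205). Other regulators of ABC genes had 2 higher and 4 lower of 7 tested (median -0.10). The nuclear receptor Pparg rose from 4.50 ± 0.399 to 6.37 ± 0.365 FPKM and the xenobiotic receptor Ahr from 6.25 ± 0.0621 to 8.01 ± 0.274 FPKM, and the metabolic regulator Esrra fell from 20.05 ± 0.249 to 12.7 ± 1.16 FPKM. Apart from H2-K1 and Keap1, the 21 list genes named here as past the threshold had adjusted p of 0.0105 or less (limma).

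**Figure D5:**
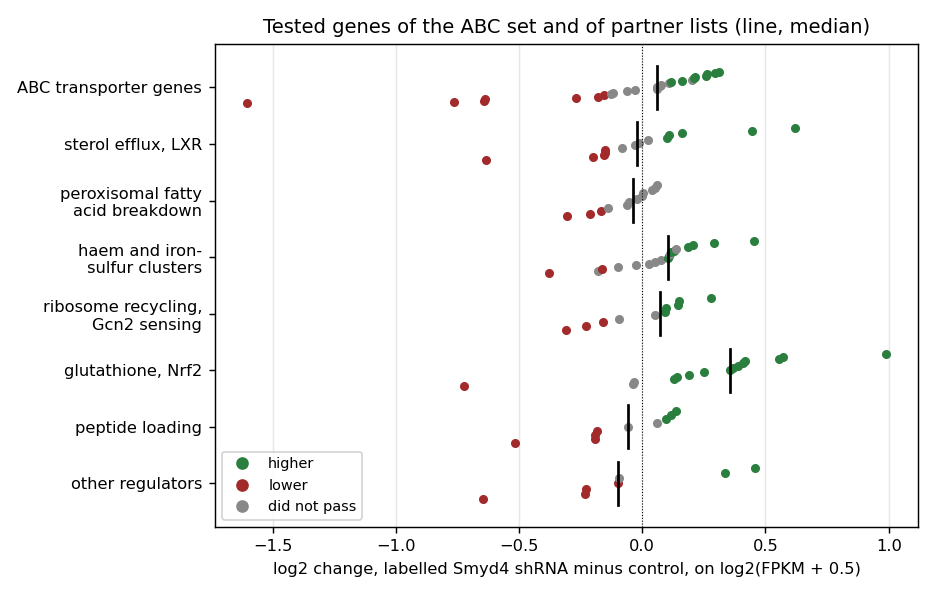
Log2 change (labelled Smyd4 shRNA minus control, on log2(FPKM + 0.5)) of each tested gene in the ABC set and in 7 partner lists, coloured by call, with the median of each list as a black line. The glutathione and Nrf2 list has the highest median, 0.36, beside 0.06 for the ABC genes.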

How the data were processed

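RNA of 6 HL-1 samples was sequenced, 3 per group, with groups and replicate numbers taken from the sample titles. Bowtie2 2.0.6 and TopHat2 2.0.9 are listed, per the submitters' processing notes; the sources used here name no read counter or strand setting. The authors deposited FPKM for 22246 genes. Their comparison table of 5616 genes holds a deposited signal (reads divided by 1 size factor per library), log2 fold changes and p-values; its largest adjusted p is 0.0499.

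FPKM times gene length over that signal was 1 constant, so FPKM follows the size factors. Whole reads were recovered: 100% of signal values (tolerance 0.0001) and 100% of FPKM values (tolerance 0.01) came out whole. Gene lengths came from the authors for 5616 genes, from the GENCODE M21 annotation for 13309 and, for 3321, as the smallest length the values allow, which makes reads of Abca3, Abca17, Abcd2, Abcd4 and Abcg1 lower bounds. Symbols matched for 22134 identifiers. Of the 43 genes, 11 overlap another gene of the table and 5 (Abca3, Abcb1a, Abcb1b, Abcb9 and Abcc10) share exon bases with one on the opposite strand. Coordinates are the authors' where listed, otherwise from the annotation. Replicates differed by more than sampling noise (chi-square per gene 1.64 to 2.71).

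Main test: limma 3.58.1 (trend) in R 4.3.3 on log2(FPKM + 0.5) for genes averaging 1 FPKM or more, adjusted over all tested genes at 0.05; this scale understates changes of low genes. It was tested on simulated data. Alternatives were other pseudocounts, filters and scalings, a replicate block, each library left out, and edgeR 4.0.16 and DESeq2 1.42.0 on recovered reads. The tested ABC genes are named except 2, which count in all totals and are not reported here; per-library values and full statistics are given for those past the threshold with a log2 change of at least 0.3 in size and the 3 most abundant, and, chosen after their values were seen, for some others. Up to 3 called genes with the largest changes were named per partner list. H2-K1, Keap1, Nfe2l2 and Nr1h2 were added after their values were seen. The members and lists were chosen with earlier results of these data known.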

Additional observations from a re-analysis of the deposited data

How the results depend on the processing

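Across 16 alternatives, 13 of the 15 called ABC genes kept their direction and call wherever they were tested; the exceptions were Abcf2 and Abcf3, given above. The number called lay between 11 (filter at a mean of 5 FPKM) and 20 (edgeR on recovered reads), beside 15. With the 5 FPKM filter 3 falls were called beside 7, since the lower genes were no longer tested. Leaving out each library in turn gave 13 to 16 calls, 6 to 9 rises and 7 falls. The replicate block gave 15 calls, 8 higher and 7 lower, and 5141 over all genes beside 5474. Same-numbered libraries did not deviate together (correlations -0.0324, 0.0182 and 0.0069). Such a check cannot show whether the numbers mark a shared culture or day, which the labels do not state. The direction of Abca8b and Abcd2, neither called, turned after quantile normalization (log2 change 0.0595 and 0.0663) and without replicate 1 of the labelled libraries (0.0102 and 0.0402); the cause was not tested. Over each library left out they ranged from -0.0579 to 0.0102 and from -0.1578 to 0.0402. Smyd4 did not pass in any alternative (log2 change -0.0967 to -0.0402 with each library left out). The 21 partner genes named for the largest changes of their lists kept their calls in every alternative that tested them. Nr1h3 was tested in 12 of the 16, not with the 5 FPKM filter or with a labelled library left out. Npc1 and Apoe were tested in 15. Of the 18 genes below 1 FPKM, edgeR tested 6 and called Abca8a and Abcb9.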
